A study of Mus musculus with 16 samples.

Results

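The mitochondrial ribosomal protein genes, the nuclear genes for the protein part of the ribosome inside mitochondria, were followed across mouse brain libraries of 4 groups. Members were all symbols of the count files that begin with Mrpl or Mrps followed by a digit, without the rows of pseudogenes. This gave 77 genes, 48 Mrpl and 29 Mrps, among 43472 symbols; the 4 pseudogene rows left out held between 44 and 343 reads over 16 libraries. The groups, of 4 libraries each, were brains of Prepl knockout mice, brains of their own wild types, brains of PWS-IC deleted mice, and brains of the wild types of that comparison. Prepl encodes a serine hydrolase related to prolyl endopeptidase, and PWS-IC is the control element that keeps the paternal genes of the Prader-Willi region active. The study set each mutant against its own wild types and asked how alike the models are. The labels give tissue and genotype but neither strain nor age. They do not say which part of the brain was taken or that the replicates are separate animals. The p-values therefore measure the spread between these samples, which may be partly technical. Libraries were made with QuantSeq, a kit that primes at the poly(A) tail and reads the 3′ end of a transcript, so counts per gene need no correction for transcript length.

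Mitochondria keep a small genome of their own, and the few proteins it encodes, all parts of the respiratory chain and ATP synthase, are made on a dedicated ribosome. Its ribosomal RNAs come from the mitochondrial genome, whereas every one of its proteins is encoded in the nucleus, made in the cytosol and imported. Many of these proteins have a counterpart in the bacterial ribosome, and others were added in the mitochondrial lineage. In brain, which depends on oxidative phosphorylation, faults in this machinery are known to cause mitochondrial encephalopathies in people.

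The 77 members divide by background knowledge into 50 proteins of the large subunit, among them Mrps30 and Mrps18a in spite of their names, 26 of the small subunit, and Mrps36, which is now known as a component of the 2-oxoglutarate dehydrogenase complex. Of the ribosomal proteins, 46 have a bacterial homolog and 30 are specific to mitochondria. All 77 are annotated as protein-coding in GENCODE M21 on GRCm38, the assembly that mm10 denotes, and they are scattered over 17 autosomes, with at most 10 on chromosome 11. A protein-coding gene on the opposite strand started within 1000 bases upstream of 18 of 77 members, or 23.38%. For other protein-coding genes of the count files this held for 1394 of 20738, or 6.72%. Those genes were not limited to genes with enough reads to be tested, whereas 75 of the 77 members had enough. Among the closest of these head-to-head pairs were Mrpl54 with Apba3 at 26 bases, Mrps18c with Helq at 29 bases and Mrps18b with Ppp1r10 at 45 bases. Only the member of each pair is described here.

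Start regions of 68 members were matched in RefSeq (GRCm38.p6), each with 250 bases before and 50 after the start. The search, on both strands, used CGCATGCG for nuclear respiratory factor 1 (NRF1), CCGGAAGT for ETS factors, AAGATGGC for YY1 and TATAAA for a TATA box; none of these strings contains another. NRF1 letters were in 7 member promoters (10.29%), in 3.85% of the 9986 matched promoters of other tested genes and in 1.91% of all 27025 promoters. ETS letters were in 11 (16.18%), against 7.89% of other tested genes and 4.00% of all. YY1 letters were in 12 (17.65%), against 4.5% and 2.88%. In 8 of these 12 members (66.7%) they read along the gene and began 11 to 36 bases after the start; among other tested genes that hold them, 207 of 449 (46.1%) had them on the gene's strand after the start. The letters contain ATG. TATAAA was in 4 member promoters (5.88%), 6.85% of those of other tested genes and 14.16% of all. Any of the first 3 was found in 28 members (41.18%) and in 15.24% of other tested genes. A match is a description of letters and not of binding.

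The promoters printed here are those of Mrpl34, the single member called in a mutant, which holds none of the 4 motifs, and of 3 other members that are described with their values further on, chosen because each holds a different motif. They are given 5′ to 3′ on the strand of the gene, with the motif letters in capitals: ETS in Mrpl51, NRF1 in Mrpl39, and in Mrps24 the TATA box letters on the other strand followed by YY1. Positions are chr8:71464676-71464975 (+) for Mrpl34, chr6:125191950-125192249 (+) for Mrpl51, chr16:84735195-84735494 (-) for Mrpl39 and chr11:5707652-5707951 (-) for Mrps24.
Mrpl34: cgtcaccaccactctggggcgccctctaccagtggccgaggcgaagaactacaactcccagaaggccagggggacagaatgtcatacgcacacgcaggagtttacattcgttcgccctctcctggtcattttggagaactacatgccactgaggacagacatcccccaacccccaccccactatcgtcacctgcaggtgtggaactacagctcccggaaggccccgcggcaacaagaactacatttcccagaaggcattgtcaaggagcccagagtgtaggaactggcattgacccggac
Mrpl51: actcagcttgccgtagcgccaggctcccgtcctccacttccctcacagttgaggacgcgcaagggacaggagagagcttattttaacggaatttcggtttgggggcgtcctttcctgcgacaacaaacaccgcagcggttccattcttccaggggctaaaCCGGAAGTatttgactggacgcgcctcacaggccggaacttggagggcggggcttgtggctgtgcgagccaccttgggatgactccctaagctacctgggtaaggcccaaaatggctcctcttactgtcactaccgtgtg
Mrpl39: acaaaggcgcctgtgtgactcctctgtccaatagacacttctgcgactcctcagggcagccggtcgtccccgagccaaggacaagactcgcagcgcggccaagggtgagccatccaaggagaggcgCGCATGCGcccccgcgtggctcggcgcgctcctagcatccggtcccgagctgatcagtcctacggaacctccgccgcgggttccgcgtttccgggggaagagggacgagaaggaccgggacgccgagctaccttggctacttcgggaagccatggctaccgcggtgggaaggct
Mrps24: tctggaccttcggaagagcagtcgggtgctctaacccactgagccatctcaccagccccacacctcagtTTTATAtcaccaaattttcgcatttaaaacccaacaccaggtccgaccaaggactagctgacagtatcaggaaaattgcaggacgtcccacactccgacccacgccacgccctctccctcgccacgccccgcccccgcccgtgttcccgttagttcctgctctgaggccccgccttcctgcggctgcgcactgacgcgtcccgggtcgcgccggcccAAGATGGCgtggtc

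Each library held 3477624 to 5852716 reads in genes, of which 10712 to 18101 fell on members, or 0.263% to 0.330%. Prepl was at 1.64 ± 0.453 CPM (counts scaled to the reads in genes of a library; SD, n = 4) in Prepl knockouts and 34.8 ± 1.35 CPM in their wild types, and Ndn, a gene silenced when PWS-IC is lost, at 4.30 ± 1.90 CPM in PWS-IC deleted brains and 556 ± 11.1 CPM in their wild types, as the labels require. From Xist and Y-linked genes, the 4 Prepl knockouts were male, their wild types 3 females and 1 male, and the sexes were even in both PWS-IC groups (2 and 2), so genotype and sex cannot be told apart fully in the Prepl comparison. Groups with both sexes held more than 1 animal, but libraries of the same sex may still come from 1 animal. Reads aligned outside genes made up 17.7% to 20.1% in PWS-IC deleted brains and 11.4% to 13.7% in their wild types, with no overlap. Marker levels also differed there: summed blood markers were 1203 to 1629 CPM in PWS-IC deleted brains and 1796 to 3970 CPM in wild types, meningeal markers 293 to 316 CPM and 380 to 635 CPM, and choroid plexus markers 401 to 1713 CPM and 1407 to 2169 CPM, with 4 of 5, 5 of 6 and 3 of 6 of their genes called lower. Astrocyte markers summed to 660.2 to 708 CPM in deleted brains and 731 to 764 CPM in wild types, without overlap but with 0 of 6 called, oligodendrocyte markers to 83.5 to 95.1 CPM and 93.9 to 102 CPM with 1 of 4 tested called lower, and microglial markers to 37.8 to 62.8 CPM and 48.1 to 73.0 CPM with 1 of 5 tested called lower. Neuronal markers were at 4468 to 4950 CPM and 4391 to 4651 CPM, and endothelial markers at 95.1 to 111 CPM and 104 to 109.5 CPM, with 0 called. Of these 8 lists, 1 gene, the oligodendrocyte marker Mog, was at 0 in every library of both PWS-IC groups and no other was. In the Prepl comparison the summed ranges of all 8 lists overlapped. There 1 of 5 blood markers was called lower, and 0 were called in the other lists. Of the markers tested there, 0 of 6 for astrocytes and 0 of 4 for oligodendrocytes lay above 0. The part of these shifts in the results on members was not tested.

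The median member had 35.1 CPM over the 16 libraries, against 21 CPM for the genes tested; 63 members reached 20 CPM and 16 reached 50 CPM. The highest were Mrps5 at 117 CPM, Mrpl20 at 109 CPM, Mrpl52 at 96.0 CPM, Mrpl12 at 94.0 CPM and Mrpl34 at 89.4 CPM, and these 5 made up 16.8% of all reads on members. The lowest that could be tested were Mrps33 at 13.4 CPM, Mrpl9 at 12.9 CPM, Mrpl1 at 12.5 CPM, Mrps27 at 12.2 CPM and Mrps36 at 4.53 CPM, so that the tested members spanned a 25.8-fold range. These are counts per poly(A) end, so they order genes only as far as a gene's 3′ end was captured and annotated. Pseudogenes matched the 3′ ends of Mrps36 (100% over 118 bases), Mrps33 (100% over 107 bases) and Mrpl9 (91.5% over 176 bases). Of the highest members, Mrps5 (97.5% over 157 bases) and Mrpl20 (95.3% over 127 bases) had matches too. Reads on such stretches may not map uniquely, so these levels and the range are uncertain. The part of the matches was not tested. Within a group, the coefficient of variation of a member had a median of 11.2% and ran from 6.09% for Mrpl20 to 44.3% for Mrps36.

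Filtering on low counts left 75 members. Mrps18b, a small-subunit protein, had 55 reads in all 16 libraries and at most 12 in one, a mean of 0.654 CPM. Mrpl53, a large-subunit protein, had 4 reads in all and at most 2 in one, a mean of 0.0435 CPM. Both lie in crowded 3′ ends: all of the exonic sequence in the last 500 bases of Mrps18b (chr17:35910379-35916389) is also covered on the other strand by Gm16279, and 83.6% of that of Mrpl53 (chr6:83109040-83109939) by Gm42688 on the same strand, which is not among the symbols of the files. Such overlap was not particular to them. It was also 100% for Mrps25 (Nr2c2) and Mrpl24 (Rrnad1) on the other strand, at mean levels of 30.5 and 34.0 CPM. For Mrps34 it was 100% on the same strand (Nme3), at 36.4 CPM. The part of these overlaps in the low counts was not tested. The strand setting of the counting is not given in the sources used here, and no fold is given for Mrps18b or Mrpl53.

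The summed level of all members differed little between a mutant and its wild types. It was 2854 ± 131 CPM in Prepl knockouts (2685 to 2996) and 2920 ± 199 CPM in their wild types (2627 to 3058). In PWS-IC deleted brains it was 3112 ± 89.95 CPM (3039 to 3243) and in their wild types 3126 ± 148 CPM (2944 to 3297; SD, n = 4 each). The ranges overlapped in both comparisons. The subunits kept their proportions: the large subunit summed to 1938 and 1988 CPM and the small subunit to 913 and 926 CPM in Prepl knockouts and their wild types, and to 2128 and 2140 CPM and 979 and 981 CPM in PWS-IC deleted brains and theirs. The lowest library of all was wild-type replicate 1 of the Prepl comparison, which also had the highest share of reads outside genes in its group, 19.6%. In the plot of summed levels, the members are level where the mitochondrial mRNAs are not.

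**Figure D1:**
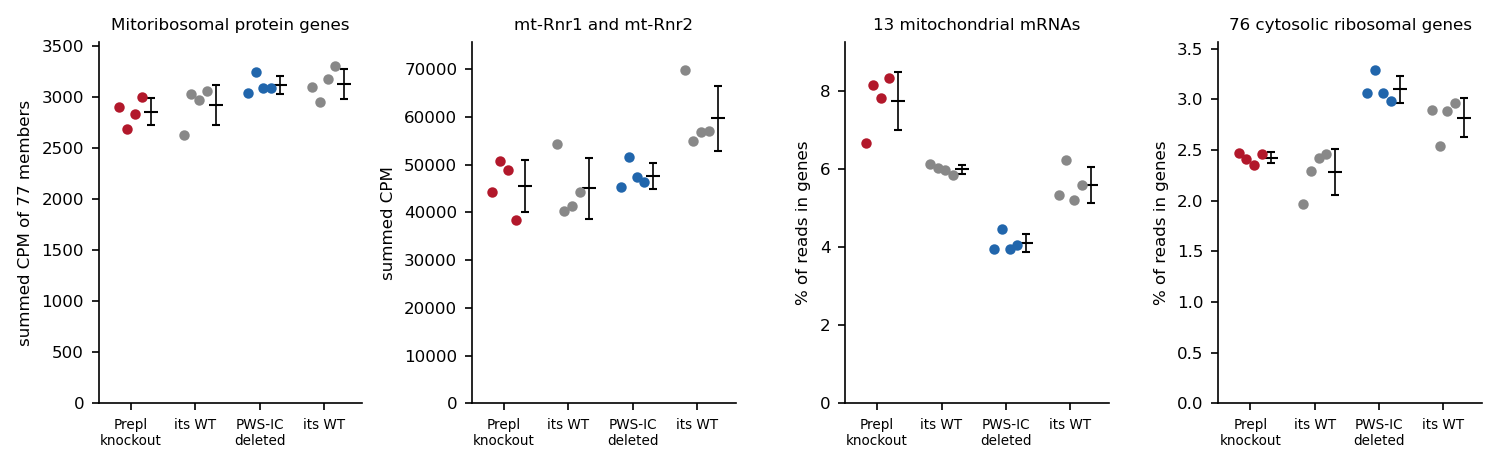
Summed level in each library (points) with mean and SD (bars, n = 4) for the 77 members (CPM), the mitochondrial rRNAs (CPM), the 13 mitochondrial mRNAs and 76 cytosolic ribosomal protein genes (both as percent of reads in genes), each mutant left of its own wild types. Members averaged 2854 CPM in Prepl knockouts against 2920 CPM, and 3112 CPM in PWS-IC deleted brains against 3126 CPM, whereas mitochondrial mRNAs took 7.74% against 5.99% and 4.10% against 5.59% of reads.

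In the Prepl knockout, 0 of 75 members passed the test (edgeR's quasi-likelihood test with an adjusted p under 0.05 after Benjamini-Hochberg correction), where 0.262% of the 13722 genes tested passed. At an unadjusted p under 0.05 there were 3 members, or 4.0%, against 9.43% of all genes, and DESeq2 and limma voom also called 0. The groups did not overlap for 1 member, Mrps18c, or 1.33%, against 5.69% of all genes. The members' log2 fold changes ran from -0.50 to 0.23 with a median of -0.0036, and 37 of 75 lay above 0; over all genes the median was 0.0003. The typical size of a change, without its sign, was 0.0774 for members and 0.113 for all genes. The 95% interval of the fold change lay within 0.5 log2 units either way for 68 of 75 members, so larger changes than that are outside the intervals of those 68. Nor did the subunits part: 25 of 49 large-subunit and 12 of 25 small-subunit members lay above 0, as did 21 of 46 with a bacterial homolog and 16 of 28 specific to mitochondria.

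The member with the smallest p there was Mrpl21, a large-subunit protein (chr19:3282901-3292837), at 33.7, 34.5, 33.2 and 39.5 CPM in Prepl knockouts, against 39.1, 53.6, 45.2 and 38.7 CPM in their wild types. The groups overlapped through knockout replicate 4 and wild-type replicates 1 and 4, and the log2 fold change was -0.29 ± 0.112 (SE; edgeR's quasi-likelihood test, adjusted p = 0.390). Mrps18c, a paralog in the small subunit (chr5:100798627-100804471), had 47.9, 47.2, 47.9 and 51.6 CPM in knockouts, against 37.1, 42.5, 46.4 and 46.1 CPM in wild types. All 4 knockout libraries lay above all 4 wild types, by a narrow margin, at 0.21 ± 0.0965 (adjusted p = 0.512). Mrpl36, the homolog of the last and smallest protein of the bacterial large subunit, was at 14.2, 15.1, 21.6 and 18.9 CPM in knockouts, against 17.2, 22.2, 31.6 and 23.2 CPM in wild types, at -0.40 ± 0.167 (adjusted p = 0.457), with overlapping groups. The other members with the smallest p were, upward, Mrps9 at 0.23, Mrps35 at 0.22, Mrpl57 at 0.19, Mrpl52 at 0.18 and Mrpl41 at 0.17, and downward Mrps27 at -0.32, Mrpl44 at -0.28, Mrpl10 at -0.26 and Mrpl48 at -0.22, with adjusted p between 0.534 and 0.638. Pseudogenes match the 3′ ends of Mrpl21 (98.1% over 104 bases), Mrpl48 (97.7% over 300 bases) and Mrpl41 (97.5% over 160 bases), so their counts are uncertain. The widest interval belonged to Mrps36, the lowest in level, at -0.50 with bounds of -1.27 and 0.27.

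**Figure D2:**
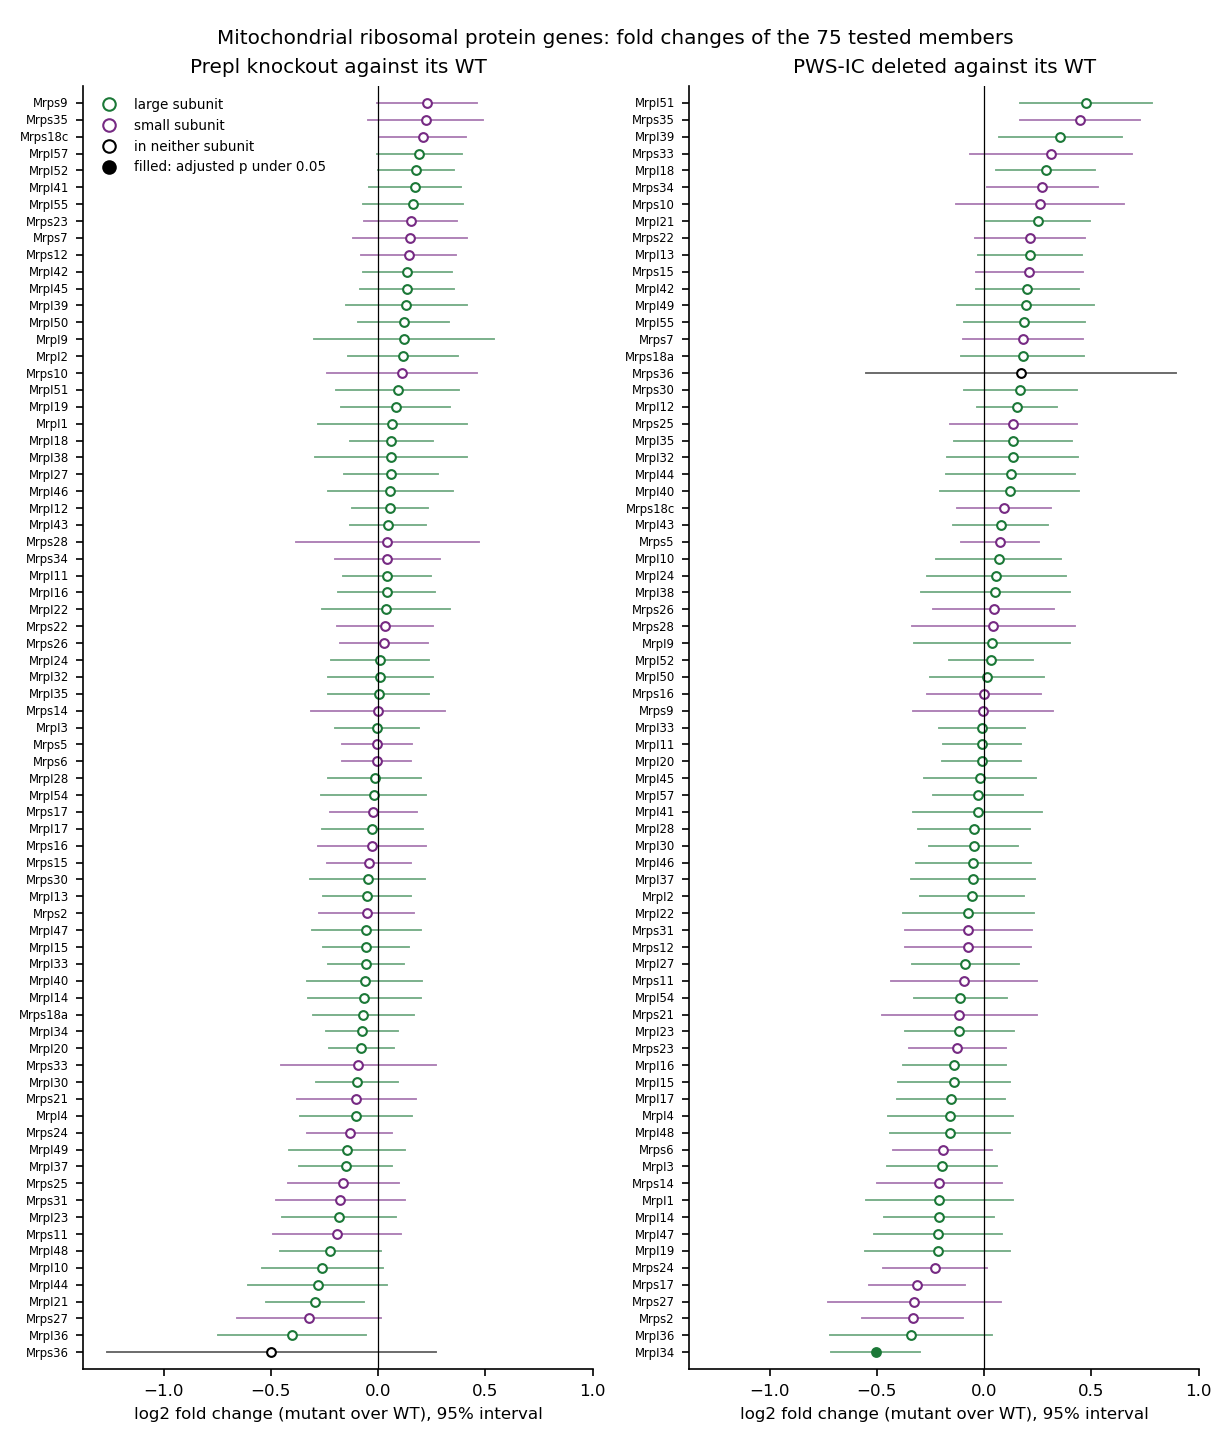
Log2 fold change of each of the 75 tested members (points) with its 95% interval (lines) in the Prepl knockout and in the PWS-IC deletion, each over its own wild types, sorted by value and coloured by subunit; a filled point has an adjusted p under 0.05. The members scatter around 0 in both panels, and the single filled point is Mrpl34 in the PWS-IC deletion at -0.51.

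In the PWS-IC deletion, 1 of 75 members passed the test, or 1.33%, where 4.52% of the 13636 genes tested passed. Of all genes 2.96% were called higher, with 0 members among them, and 1.55% lower, with 1 member. At an unadjusted p under 0.05 there were 9 members, or 12%, against 18.2% of all genes, and groups did not overlap for 8 members, or 10.7%, against 11.8%. The shares of members were thus at or below those of all genes. The members' log2 fold changes ran from -0.51 to 0.47 with a median of -0.0096, and 36 of 75 lay above 0; the median over all genes was -0.014. The median size without sign was 0.136 for members and 0.167 for all genes. Intervals lay within 0.5 log2 units either way for 57 of 75 members and within 1 unit for 75 of 75.

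The called member was Mrpl34 (chr8:71464959-71465747, plus strand, 2 exons), the mitochondrial counterpart of bacterial L34, a small protein of the large subunit. It was at 57.0, 70.9, 60.1 and 64.2 CPM in PWS-IC deleted brains, against 81.3, 97.7, 91.5 and 89.9 CPM in their wild types. Every deleted library lay below every wild type, with a gap between the groups. The means were 63.1 ± 6.0 and 90.1 ± 6.75 CPM (SD, n = 4), and the log2 fold change was -0.51 ± 0.0991 (SE; 95% interval -0.71 to -0.30; edgeR's quasi-likelihood test, adjusted p = 0.0052). It stayed called when each of the 8 libraries was left out, at -0.57 to -0.46. With a term for the outside-gene share, which separates these groups, the estimate was 0.18 (adjusted p = 0.999), and 4 genes in all were then called against 616. In Prepl knockouts the same gene had 95.05, 92.5, 93.9 and 112 CPM, against 99.2, 112, 97.8 and 115 CPM in their wild types, a change of -0.08 ± 0.0809 (adjusted p = 0.825). The difference between the models was -0.43 ± 0.129, with an unadjusted p of 0.00247 and an adjusted p of 0.142 in edgeR's quasi-likelihood test, so that it was not shown to differ between them. No annotated exon of another gene overlapped Mrpl34 and no pseudogene matched its 3′ end at 90% identity or more over 100 bases.

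**Figure D3:**
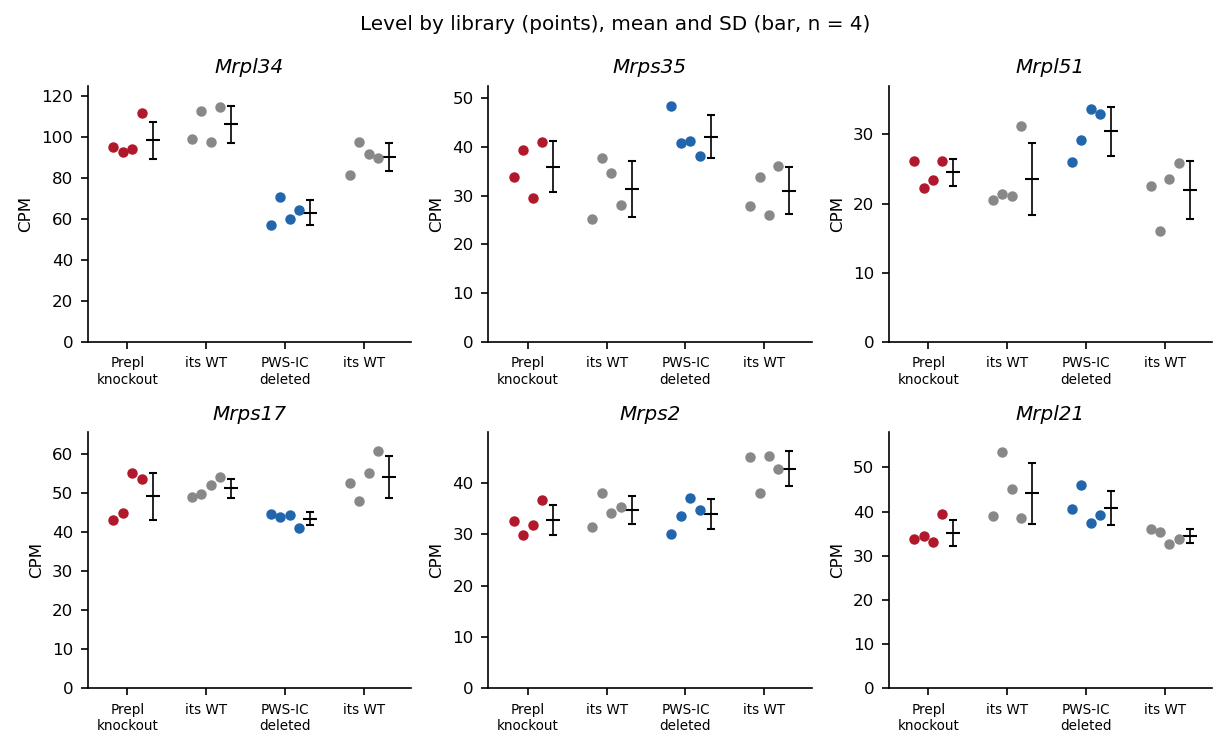
Level of 6 members in each library (points, CPM) with mean and SD (bars, n = 4), each mutant left of its own wild types. Mrpl34 in PWS-IC deleted brains lies between 57.0 and 70.9 CPM, below the 81.3 to 97.7 CPM of their wild types. Mrps35 and Mrpl51 lie higher and Mrps17 and Mrps2 lower in deleted brains than in each of their own wild types, without passing the test.

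On the higher side, Mrps35, a mitochondria-specific protein of the small subunit (chr6:147042764-147073991), was at 48.4, 40.8, 41.1 and 38.1 CPM in PWS-IC deleted brains, against 27.9, 33.9, 26.0 and 36.2 CPM in their wild types, at 0.45 ± 0.134 (adjusted p = 0.0621). Mrpl51, a mitochondria-specific protein of the large subunit (chr6:125191801-125196269), had 26.0, 29.2, 33.6 and 32.96 CPM, against 22.6, 16.1, 23.5 and 25.9 CPM, at 0.47 ± 0.148 (adjusted p = 0.0727). For both, all deleted libraries were above all wild types, though for Mrpl51 the nearest values almost touch, and both fell on the other side of the threshold under some settings. Mir3098 lies within the 3′ end of Mrpl51, and reads on its 87 bases cannot be told apart from those of Mrpl51. Mrpl39 was at 28.9, 41.0, 38.5 and 30.4 CPM in deleted brains, against 28.7, 23.7, 28.0 and 28.2 CPM (0.36 ± 0.137, adjusted p = 0.160), with no overlap but with the nearest values almost equal. Mrpl18, whose bacterial counterpart binds 5S rRNA, changed by 0.29 ± 0.111, Mrps34 by 0.27 ± 0.123 and Mrpl21 by 0.25 ± 0.117, with adjusted p from 0.162 to 0.258. All exonic sequence in the last 500 bases of Mrps34 is shared with Nme3 on the same strand, so its count is uncertain.

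On the lower side, Mrps17, a small-subunit protein with a bacterial homolog (chr5:129715497-129722556), was at 44.5, 43.8, 44.3 and 40.9 CPM in PWS-IC deleted brains, against 52.6, 47.9, 55.1 and 60.7 CPM in their wild types, at -0.31 ± 0.106 (adjusted p = 0.103). Mrps2, also of the small subunit (chr2:28468066-28471178), had 30.1, 33.5, 37.1 and 34.7 CPM, against 45.1, 38.0, 45.3 and 42.6 CPM, at -0.33 ± 0.114 (adjusted p = 0.104). Neither gene's groups overlapped. Mrpl36 was at -0.34 ± 0.181, Mrps27 at -0.33 ± 0.194, Mrps24 at -0.23 ± 0.116 and Mrps6 at -0.19 ± 0.111, with adjusted p of 0.302 to 0.402 and overlapping groups. With Mrpl34, Mrps35, Mrpl51, Mrpl39, Mrps17 and Mrps2, the 8 members without overlap included Mrpl21, which was higher, and Mrpl1 at -0.21 ± 0.164 (adjusted p = 0.550). By origin, 17 of 46 members with a bacterial homolog and 18 of 28 mitochondria-specific members lay above 0, with medians of -0.05 and 0.06 on the log2 scale; by subunit the counts were 22 of 49 for the large and 13 of 25 for the small subunit.

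Of the 10 members at the ends of the range of levels, Mrpl34 passed the test, in the PWS-IC deletion, and the other 9 passed in neither mutant. In Prepl knockouts and in PWS-IC deleted brains, each over its own wild types, Mrps5 was at -0.01 ± 0.0797 and 0.08 ± 0.0873, Mrpl20 at -0.08 ± 0.0741 and -0.01 ± 0.0880, and Mrpl52 at 0.18 ± 0.0864 and 0.03 ± 0.0935 on the log2 scale. At the low end, where fewer reads widen the error, Mrps33 was at -0.09 ± 0.174 and 0.31 ± 0.180, Mrpl9 at 0.12 ± 0.203 and 0.04 ± 0.174, Mrpl1 at 0.07 ± 0.169 and -0.21 ± 0.164, and Mrps36 at -0.50 ± 0.373 and 0.17 ± 0.346. Mrps27 was at -0.32 ± 0.163 and -0.33 ± 0.194, below its wild types in both comparisons with overlapping groups.

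Functional units inside the ribosome were followed by name. The stalk of the large subunit, which recruits translation factors, is built from Mrpl10 and Mrpl12 beside Mrpl11 at its base. In Prepl knockouts against their wild types these were at 21.03 and 25.9 CPM, 89.4 and 88.0 CPM, and 73.7 and 73.2 CPM, with log2 fold changes of -0.26 ± 0.137, 0.06 ± 0.0851 and 0.04 ± 0.0998. In PWS-IC deleted brains against theirs they were at 25.5 and 24.5 CPM, 104 and 94.3 CPM, and 99.6 and 101 CPM, with changes of 0.07 ± 0.139, 0.15 ± 0.0897 and -0.01 ± 0.0876. None of these 6 values passed the test (adjusted p 0.396 to 0.970). The Mrps18 paralogs derive from bacterial S18 and occupy different places in the mitochondrial ribosome. They differed in level, with Mrps18c at 48.7 and 43.0 CPM and Mrps18a at 27.8 and 29.9 CPM in Prepl knockouts and their wild types, and 67.7 and 63.6 CPM and 31.2 and 27.7 CPM in PWS-IC deleted brains and theirs, while Mrps18b was near 0. Mrps18a changed by -0.07 ± 0.114 and 0.18 ± 0.137, and Mrps18c by 0.21 ± 0.0965 and 0.09 ± 0.104, in the Prepl and PWS-IC comparisons. Pseudogenes match the 3′ end of Mrps18c at up to 97.0% identity over 234 bases, with 140 reads counted for the closest.

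A direct test of the difference between the mutant effects, PWS-IC minus Prepl, called 0 of 75 members, where 0.778% of 14392 genes were called; DESeq2 and limma voom called 0 as well. At an unadjusted p under 0.05 there were 2 members, or 2.67%, against 11.7% of all genes. These were Mrpl34, given above, and Mrpl21, which lay lower in Prepl knockouts and higher in PWS-IC deleted brains than in the wild types of each. Mrpl21 was at 40.7, 46.1, 37.4 and 39.2 CPM in PWS-IC deleted brains, against 36.1, 35.4, 32.6 and 33.9 CPM in their wild types, with no overlap. Its difference was 0.55 ± 0.163 (95% interval 0.22 to 0.88; edgeR's quasi-likelihood test, unadjusted p = 0.00211, adjusted p = 0.133). The median difference over members was 0.03, and 41 of 75 lay above 0. Intervals of the difference are wider, and 33 of 75 lay within 0.5 log2 units either way and 74 within 1 unit.

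The RNAs and proteins the members work with were set beside them. The other proteins of this ribosome whose genes bear other names, namely Dap3, Gadd45gip1, Chchd1, Aurkaip1, Ptcd3 and Ict1, gave 0 of 6 calls in both comparisons. Gadd45gip1, a large-subunit protein, came nearest, at 59.3 ± 4.30 CPM in PWS-IC deleted brains and 47.5 ± 5.57 CPM in their wild types (0.33 ± 0.112, adjusted p = 0.104). Of 14 tested mitochondrial translation factors, 0 passed in either comparison, with 4 of 14 above 0 in Prepl knockouts and 10 of 14 in PWS-IC deleted brains. Of the mitoribosome assembly factors, 0 of 23 passed in Prepl knockouts and 0 of 22 in PWS-IC deleted brains; the smallest p belonged to Mettl17 at 0.56 ± 0.156 in the Prepl knockout (adjusted p = 0.184) and to Ddx28, a helicase needed for the large subunit, at 0.41 ± 0.135 in the PWS-IC deletion (adjusted p = 0.0937).

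The RNAs encoded by the mitochondrial genome differed from the members. The ribosomal RNAs mt-Rnr1 and mt-Rnr2, the RNA part of the same ribosome, fell in PWS-IC deleted brains, by 0.40 and 0.29 on the log2 scale (SE 0.0767 and 0.0717, adjusted p = 0.00419 and 0.0220). In Prepl knockouts they were at 0.04 ± 0.0982 and 0.06 ± 0.0947, and neither passed. Their summed level averaged 47685 CPM in PWS-IC deleted brains and 59733 CPM in their wild types. It was 45614 CPM in Prepl knockouts and 45092 CPM in their wild types, so the wild types of the PWS-IC comparison were the highest group. Of the 13 mitochondrial mRNAs, 6 rose and 0 fell in Prepl knockouts, with a median of 0.30, whereas 0 rose and 10 fell in PWS-IC deleted brains, with a median of -0.45. For example mt-Cytb, cytochrome b of complex III, changed by 0.73 ± 0.0767 in Prepl knockouts and by -0.37 ± 0.0715 in PWS-IC deleted brains. In the same tests 0 and 1 of the 75 tested members were called. With sex as a term, 3 of all genes were called higher in the Prepl knockout, so not all of the 6 rises were kept. With the outside-gene share as a term, 4 of all genes were called in the PWS-IC deletion, so most of the falls in mitochondrial RNAs were not kept. Among 76 cytosolic ribosomal protein genes, 0 were called in Prepl knockouts, with 66 of 76 above 0, and 17 were higher and 1 lower in PWS-IC deleted brains. Captured mitochondrial rRNA and mRNA depend on poly(A) tails, and fewer cells of a type cannot be told apart from less RNA per cell in such bulk samples.

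**Figure D4:**
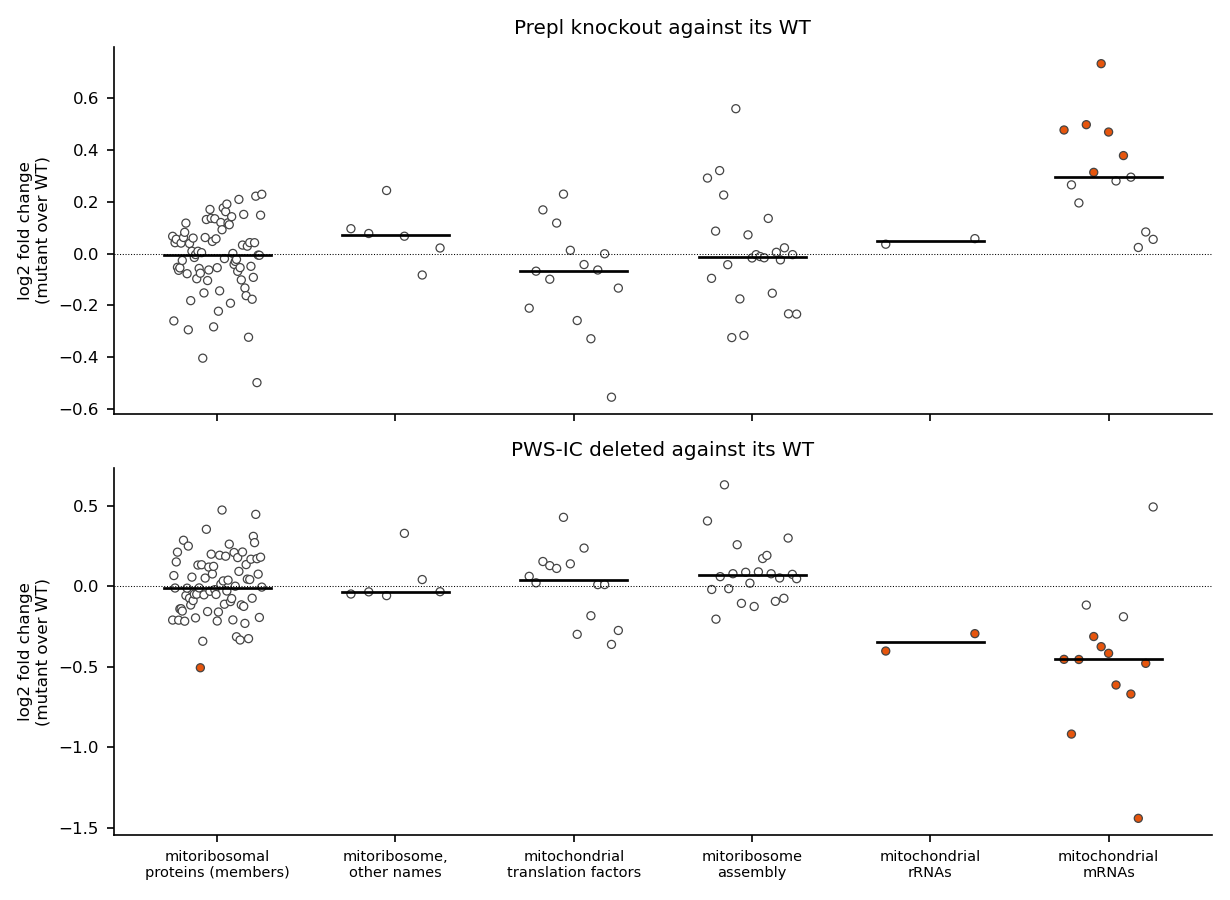
Log2 fold change, mutant over its own wild types, of the tested members and of 5 related lists (points are genes, black lines medians, filled points have an adjusted p under 0.05). Medians are -0.0036 in Prepl knockouts and -0.0096 in PWS-IC deleted brains for members, and 0.30 and -0.45 for mitochondrial mRNAs; those of the 3 other nuclear lists lie between -0.07 and 0.07.

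The wild types of the comparisons were also set against each other in a comparison added after values were seen. In the wild types of the PWS-IC comparison over those of the Prepl comparison, 17 of 75 members were higher and 0 were lower. The share called was 22.7%, close to the 23.8% of the 13756 genes tested, but all genes split evenly, with 11.8% higher and 12% lower. The median over members was 0.10 with 52 of 75 above 0, against -0.0013 over all genes, and 36 of 76 cytosolic ribosomal protein genes were higher and 2 lower. Both mitochondrial rRNAs were also called higher, with a median of 0.44, and of the 13 mitochondrial mRNAs 6 were higher and 4 lower. Among members, the absence of lower calls depended on the setting: upper-quartile factors gave 12 higher and 3 lower, and 1 fit of all 16 libraries gave 15 higher and 1 lower. Leaving out 1 library at a time gave 9 to 16 higher and 0 to 3 lower, with 1 to 3 lower in 5 of these 8 fits, namely those without replicate 2 or 4 of the PWS-IC wild types or without replicate 1, 3 or 4 of the Prepl wild types. The count was lowest, at 10, without replicate 4 of the PWS-IC wild types, and was 11 without their replicate 1 or without replicate 2 or 3 of the Prepl wild types. RLE factors, DESeq2, limma voom and sex as a term gave 13 to 17 calls, 0 of them lower. Reads outside genes also differed between these groups, at 11.4% to 13.7% in wild types of the PWS-IC comparison against 15.98% to 19.6% in those of the Prepl comparison. In the same order, summed blood markers were at 1796 to 3970 CPM against 659.9 to 1145 CPM, with 5 of 5 genes higher, and choroid plexus markers at 1407 to 2169 CPM against 909 to 1458 CPM, with 3 of 6 higher. Lower calls were made for 2 of 4 tested oligodendrocyte markers (93.9 to 102 CPM against 127 to 203 CPM), 2 of 6 astrocyte markers (731 to 764 CPM against 699 to 955 CPM), 2 of 8 neuronal markers (4391 to 4651 CPM against 4747 to 4825 CPM), 2 of 6 endothelial markers (104 to 109.5 CPM against 117 to 143 CPM) and 1 of 6 microglial markers (48.1 to 73.0 CPM against 64.1 to 79.3 CPM). Meningeal markers, at 380 to 635 CPM against 450.2 to 588 CPM, gave 0 calls, and the part of these shifts in the result on members was not tested.

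The clearest of these members was Mrps18c, at 71.2, 60.2, 59.0 and 64.2 CPM in wild types of the PWS-IC comparison, against 37.1, 42.5, 46.4 and 46.1 CPM in those of the Prepl comparison, with a wide gap. Its log2 difference was 0.61 ± 0.103 (edgeR's quasi-likelihood test, adjusted p = 0.00019), beyond any change of a member in a mutant. Mrpl50, a mitochondria-specific protein of the large subunit, had 52.6, 45.2, 51.0 and 51.2 CPM, against 30.3, 35.8, 35.3 and 34.5 CPM (0.60 ± 0.104, adjusted p = 0.000224). Mrpl20, whose bacterial counterpart acts in assembly of the large subunit, had 120, 126, 121 and 140 CPM, against 90.2, 103, 95.01 and 96.6 CPM (0.45 ± 0.0822, adjusted p = 0.000425). Neither gene's groups overlapped, and each of these 3 calls, with those of Mrpl11, Mrpl23, Mrpl46 and Mrpl22, held when any 1 of the 8 libraries was left out, whereas each of the other 10 calls was lost in at least 1 such fit. The 3′ end of Mrpl23 is identical over 298 bases to that of Mrpl23-ps1, a row with 343 reads, so its count is uncertain. Pseudogenes also match the 3′ ends of Mrps18c (97.0% over 234 bases), Mrpl22 (98.2% over 224 bases) and Mrpl20 (up to 95.3%, over 127 bases). In the plot of the wild types the called members all lie on the same side of the line of equality.

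**Figure D5:**
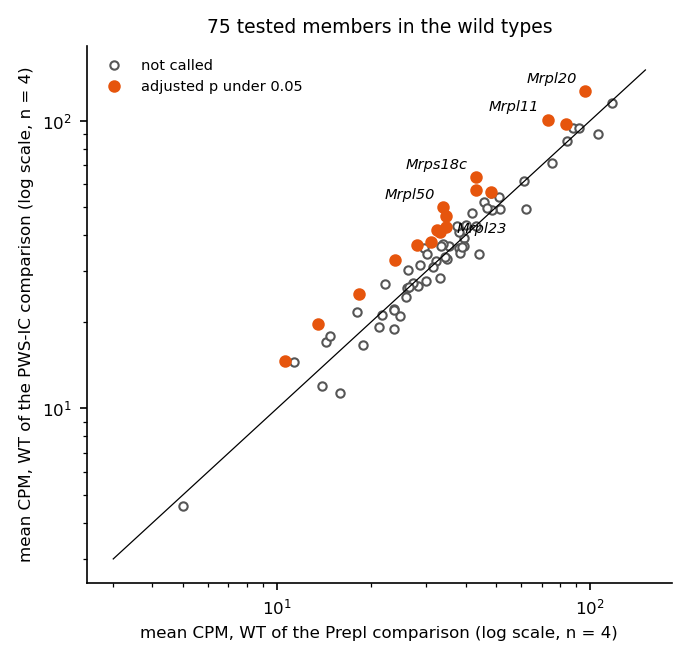
Mean level of each of the 75 tested members in wild types of the PWS-IC comparison (vertical axis, CPM, log scale, n = 4) against wild types of the Prepl comparison (horizontal axis, CPM, log scale, n = 4), with the line of equality; filled points have an adjusted p under 0.05. All 17 called members lie above the line, with Mrps18c at 63.6 against 43.0 CPM and Mrpl20 at 127 against 96.1 CPM.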

How the data were processed

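RNA was measured in 16 mouse brain libraries, 4 in each of 4 groups taken from the sample titles. Counts were deposited by the authors as whole numbers of reads per gene symbol, made with HISAT2, HTSeq and the mm10 genome per the submitters' processing notes; of versions, annotation and strand setting nothing is said in the labels. The 5 totals that name no gene stayed out of library sizes and tests; reads outside genes were 11.4% to 20.1% of tabled reads. CPM were computed here from the deposited counts.

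Counts were tested as deposited with edgeR 4.0.16 under R 4.3.3: filterByExpr (minimum count 10, minimum total 15), TMM, quasi-likelihood fit and F-test, with Benjamini-Hochberg correction across the whole table. Each mutant was fitted with its own wild types, the difference of effects over 16 libraries, and the wild types against each other. SE is the absolute log2 fold change over the square root of F; intervals are 95%. DESeq2 1.42.0, limma 3.58.1 voom, other scalings and filters, 1 fit of 16 libraries, sex, the replicate number or the share of reads outside genes as terms, and leaving out each library were alternatives. The fit was tested first on simulated data with the same spread for every gene. Of true changes of 0.5 log2 units, 57% were recovered in the Prepl comparison, 36% in the PWS-IC comparison and 19% in the difference. For changes of 1 unit the shares were 100%, 97% and 75%. False calls made up 6.55%, 6.99% and 8.74% of calls, in the same order. The simulation changed 100 genes by each amount, all above a minimum level, whereas the real Prepl test called 36 genes. The shares recovered may therefore overstate what the real Prepl test could find.

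Members and lists were chosen with earlier results of these data known. Values were given for called members, the 6 smallest p in each direction of a mutant comparison, the 5 highest and 5 lowest levels, the Mrps18 paralogs and the stalk; the members named between wild types were chosen after their values were seen. Annotation is GENCODE M21; 3′ ends of 300 bases were compared with pseudogenes by BLAST.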

Additional observations from a re-analysis of the deposited data

Results flagged for a closer look

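Levels of the named members were screened for a library that stands apart from the other 3 of its group, by its gap to the nearest over the range of the group. Of 124 groups of 4, 10 held such a library, where chance gives about 1 in 20. Among PWS-IC deleted brains, Mrpl11 was at 109.2 CPM in replicate 2, against 95.47 to 96.96 CPM in the others, and Mrpl41 was at 38.26 CPM in replicate 1, against 48.60 to 50.61 CPM. In wild types of the PWS-IC comparison, Mrpl11 was at 109.3 CPM in replicate 4 (others 97.22 to 98.44 CPM), Mrpl39 at 23.66 CPM in replicate 2 (28.03 to 28.70 CPM), Mrps34 at 33.49 CPM in replicate 3 (39.03 to 39.64 CPM) and Mrps36 at 1.704 CPM in replicate 2 (5.331 to 5.642 CPM).

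In Prepl knockouts both such values came from replicate 4, which was high for Mrpl34 at 111.8 CPM (others 92.46 to 95.05 CPM) and for Mrps18c at 51.62 CPM (47.22 to 47.91 CPM). In wild types of the Prepl comparison, Mrpl51 was at 31.24 CPM in replicate 4, the male of that group (others 20.55 to 21.36 CPM), and Mrpl57 at 42.65 CPM in replicate 1 (49.90 to 50.64 CPM). Both Mrpl57 and the summed level of members were lowest in that library.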

How the results depend on the processing

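With 4 libraries a group, 95% intervals of members had a median half-width of 0.235 log2 units in the Prepl knockout and 0.269 in the PWS-IC deletion, so a member that missed the test is not shown to be unchanged. Calls among members were 0 in the Prepl knockout and 0 in the difference under every setting run. In the PWS-IC deletion the 1 call (Mrpl34) became 2 with DESeq2 and 2 without a filter (Mrps35 added), 3 in 1 fit of all 16 libraries, 3 with sex as a term (Mrps35 and Mrpl51 added), 5 with sex in the fit of 16 libraries, an alternative chosen after seeing the data, and 0 with a term for the outside-gene share; leaving out libraries gave 1 to 2, the second being Mrps35 without wild-type replicate 2. With the replicate number as a block (replicate block), 3 members were called in the PWS-IC deletion, among 989 genes in all against 616, and 0 in the Prepl knockout; same-numbered libraries did not deviate together in every pair (r from -0.0671 to 0.0456 for Prepl and -0.0219 to 0.180 for PWS-IC), with 3 of 4 PWS-IC pairs over 0.1 and not every library correlating best with its own number. Same-numbered libraries of the PWS-IC groups were also of the same sex, and nothing in the labels says that a number marks a pair, so the libraries were not treated as paired. Over all genes tested, calls in the PWS-IC deletion (616) were 945 without a filter, 999 in the fit of 16 libraries, 1119 with sex, 4 with the outside-gene share and 362 at the fewest when a library was left out; in the Prepl knockout (36) they were 156, 18, 6 and 61, and 12 to 103; in the difference (112) they were 222 without a filter, 170 with DESeq2, 235 with sex and 14 with the outside-gene share. Between wild types, leaving out libraries gave 10 to 19 calls against 17, with 0 to 3 of them lower.

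The median over members moved to -0.079 in the Prepl knockout with sex as a term and to 0.12 in the PWS-IC deletion with the outside-gene share as a term; the cause was not tested. Of 47 results for a named member, 28 kept their direction in every setting, and of the 19 that reversed only Mrpl34 had been called. With the outside-gene share in the PWS-IC deletion, values were 0.18 for Mrpl34, 0.40 for Mrpl11, 0.52 for Mrpl20, 0.64 for Mrpl36, 0.24 for Mrps24, 0.14 for Mrps27, 0.21 for Mrps6, -0.55 for Mrpl9, -0.015 for Mrps18a, -0.68 for Mrps36 and -0.082 for Mrps5. With sex in the Prepl knockout they were -0.045 for Mrpl1, -0.18 for Mrpl11, -0.025 for Mrpl12, -0.057 for Mrpl9 and 0.090 for Mrps33, and in the fit of 16 libraries -0.048 for Mrpl11, 0.0009 for Mrps33 and 0.049 for Mrps5. Leaving out 1 library reversed 10 near 0: in the PWS-IC deletion Mrpl10 (-0.0043 to 0.14), Mrpl11 (-0.064 to 0.026), Mrpl20 (-0.053 to 0.039), Mrpl52 (-0.0087 to 0.099), Mrpl9 (-0.056 to 0.14) and Mrps36 (-0.090 to 0.33), and in the Prepl knockout Mrpl11 (-0.049 to 0.12), Mrpl9 (-0.060 to 0.24), Mrps33 (-0.18 to 0.024) and Mrps5 (-0.054 to 0.053).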
